A study of Homo sapiens with 6 samples.

Results

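The genes described are 10 integrin subunits, the 6 alpha subunits ITGA2, ITGA3, ITGA4, ITGA5, ITGA6 and ITGAV and the 4 beta subunits ITGB1, ITGB3, ITGB5 and ITGB8, in U2OS 2-6-3 cells. They were taken by name, and each gene was represented by its transcript entry on a primary chromosome with the most reads over the 3 deposited comparison tables. All 10 were found, among 26870 genes with a symbol, of which 21643 had at least 1 read. U2OS is a human osteosarcoma line, and 2-6-3 is a clonal derivative of it that carries a chromosomal reporter array with tet operators. RNA sequencing was done on 6 libraries in 3 groups of 2. Sample cells had been transiently transfected with a mixture of 3 plasmids, for CIBN-TetR, for mCherry-MCP and for PHR-YFP-VP16. The plant photoreceptor domain PHR binds CIBN under blue light, which carries the VP16 activator to the tet operators. Mock cells had been transfected with TetR-RFP and YFP by the same Roche reagent, and untransfected cells had received no plasmid and no reagent. All 3 groups were grown in DMEM with doxycycline-free serum and stood in white light overnight, so no group shows these genes without light. Reagent and plasmids came together, so their effects on integrin transcripts cannot be told apart.

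Integrins are receptors for the extracellular matrix and for other cells, each built of 1 alpha and 1 beta chain. ITGB1 pairs with most alpha subunits measured here, giving collagen receptors with ITGA2, laminin receptors with ITGA3 and ITGA6, and fibronectin receptors with ITGA5 and ITGA4, whereas ITGAV also pairs with ITGB3, ITGB5 and ITGB8. Talin and kindlin bind the beta tail and activate the receptor, and focal adhesion proteins link it to actin. In osteosarcoma cells, which adhere and migrate on matrix, a set of such receptors is present on the surface.

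Promoter sequences are given for ITGA2 and ITGA6, the members with the highest fold changes, and for ITGB8, the member with the lowest, as the 250 bases before the most upstream start listed for the gene in the RefSeq promoter table (GRCh38.p14, plus strand, written 5′ to 3′). That start need not be the start of the deposited entry, and positions are counted from the table's start. Capitals mark the GC box (GGGCGG) in ITGA2 and ITGB8, and the E-box (CACGTG) and the TATA box (TATAAA) in ITGA6. Motifs were read on both strands, so a reverse match appears as its complement, CCGCCC or TTTATA.
ITGA2, chr5:52989102-52989351: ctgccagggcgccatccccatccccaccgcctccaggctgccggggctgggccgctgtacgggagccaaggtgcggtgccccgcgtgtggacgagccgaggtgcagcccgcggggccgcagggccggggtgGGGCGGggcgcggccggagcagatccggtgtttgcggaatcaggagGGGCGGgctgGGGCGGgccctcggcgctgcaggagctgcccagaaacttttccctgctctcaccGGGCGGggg
ITGA6, chr2:172427086-172427335: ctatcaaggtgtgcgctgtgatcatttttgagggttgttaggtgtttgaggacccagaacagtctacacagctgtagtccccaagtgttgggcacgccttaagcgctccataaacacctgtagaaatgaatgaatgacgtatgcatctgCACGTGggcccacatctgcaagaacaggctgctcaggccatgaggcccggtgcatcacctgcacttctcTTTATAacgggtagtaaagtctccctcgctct
ITGB8, chr7:20330650-20330899: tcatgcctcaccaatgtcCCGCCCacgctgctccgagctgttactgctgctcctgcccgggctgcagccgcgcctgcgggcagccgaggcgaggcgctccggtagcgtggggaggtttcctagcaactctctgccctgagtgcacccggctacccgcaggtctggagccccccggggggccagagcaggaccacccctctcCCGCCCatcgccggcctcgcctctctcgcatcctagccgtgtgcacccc
The ITGA2 window held 4 GC boxes, at positions -119, -73, -63 and -9 from the table's start, and the ITGB8 window held 2, at -232 and -49. The deposited ITGA2 entry begins at 52989326, so the end of its window, with the GC box at -9, lies inside that entry. The ITGA4 and ITGB1 windows, which are not shown, also overlap deposited entries of their genes. The ITGA6 window had no GC box and had a TATA box at -32 and an E-box at -101. Of the 10 members, 8 had a promoter in the RefSeq table, and ITGA3 and ITGB3 were not among them. GC boxes were in 5 of these 8 members, ITGA2, ITGA5, ITGB1, ITGB5 and ITGB8, against 42.2% of 27305 RefSeq promoters. The ETS motif (CCGGAA) was in ITGB1 and ITGB5, against 14.8% of promoters, and the TEAD motif (GGAATG) was in ITGA5 and ITGB1, against 12%. The AP-1 motif (TGANTCA) and the CRE (TGACGTCA) were in none of the 8 windows, against 6.57% and 1.75% of promoters, while TATA boxes were in 11.2% and E-boxes in 6.46%. No matches to different motifs overlapped in these windows. GC content was 76.4% in the ITGA2 window, 50.8% in that of ITGA6 and 71.2% in that of ITGB8, against a median of 57.6%. The member with the most GC boxes among these 3 and the member with the lowest fold change therefore share this motif, and a match does not show that a factor was bound.

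Reads summed over transcript entries were 50105854 and 9579278 in the sample libraries, 54177551 and 44594507 in mock libraries, and 53596406 and 51146190 in the untransfected libraries. Counts per library were solved from the deposited means, and the deeper library of each group is called a and the shallower b, since the replicate number of each is not known. The sample pair differed most, with an SD of the log2 ratio of library b to a of 0.413 over 12578 genes. This SD was 0.207 in the mock pair and 0.173 in the untransfected pair. The low depth of sample library b widens this ratio by counting alone, and how far was not tested. Whether the 2 libraries of a group came from separate cultures is not stated in the labels, and p-values therefore cover no more than the difference between these libraries, which can be technical. Of 12 osteoblast lineage markers, 8 had a mean above 50 normalized read counts, SPARC and VIM among the abundant ones, whereas the osteoblast transcription factor gene SP7 was near 0 and DLX5 was at 0 in all libraries. The 12 blood and platelet markers summed to 321 to 325 normalized counts in sample, 263 to 276 in mock and 126 to 155 in untransfected libraries. Most of the sum was ITGB2, CD68 and HBB in sample libraries and ITGB2 and CD68 in mock libraries. ITGB2 had 87.6 and 53.5 in sample, 121 and 98.3 in mock and 63.7 and 49.2 in untransfected libraries. Of these 12 markers ITGAL, CD3E, GP9 and PF4 were at 0 in all 6 libraries, whereas the leukocyte marker PTPRC had 3.91 and 4.12 in sample, 6.38 and 5.56 in mock and 13 and 9.98 in untransfected libraries, and ITGA2B, ITGAM and ITGAX had low counts in all 6. CD68 had 72.8 and 140.0 in sample, 73 and 108 in mock and 13.6 and 20.7 in untransfected libraries. The globin gene HBB had 103 and 61.8 in sample, 11.3 and 3.71 in mock and 1.95 and 4.28 in untransfected libraries, and it was called between sample and mock cells in the authors' deposited table (adjusted p = 0.0191). Epithelial markers summed to 15331 to 17557 in sample, 14888 to 17712 in mock and 14236 to 15342 in untransfected libraries, most of it KRT8 and KRT18, with GRHL2 at 0 throughout. Single epithelial markers differed more than the sum in the authors' deposited tables. Against untransfected cells 1 rose and 3 fell of 6 tested for sample, and 1 rose and 3 fell of 7 tested for mock cells. The share of all genes called was 37.3% for sample and 50.9% for mock cells, so the count for mock cells was near it. CLDN4, a tight junction gene, had 136 and 148 in sample, 123 and 105 in mock and 1424 and 1492 in untransfected libraries, and EPCAM had 60.2 and 57.6 in sample, 85.1 and 46.4 in mock and 190.4 and 174 in untransfected libraries. Both fell, CLDN4 with log2 fold changes of -3.27 for sample and -3.59 for mock and EPCAM with -1.43 for sample and -1.34 for mock against untransfected cells in the authors' deposited tables, and the third to fall was ITGB4. KRT18 was the epithelial marker that rose, with log2 fold changes of 0.84 for sample and 0.90 for mock cells in the same tables. Endothelial markers summed to 50.9 to 57.6 in sample, 47.3 to 49.6 in mock and 170.2 to 199.6 in untransfected libraries, with CLDN5 at 0 throughout. Most of the endothelial difference was VWF, with 20.3 and 8.24 in sample, 17.7 and 10.2 in mock and 129.9 and 140.4 in untransfected libraries. TEK was not called against untransfected cells, and PECAM1, CDH5 and KDR were at 12.4 or below in all libraries. The part of these markers in the integrin results was not tested. In bulk RNA, fewer cells of a kind and less RNA per cell cannot be told apart.

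ITGB1, the common beta chain, was the most abundant of the 10 transcripts in every group when counts were divided by transcript length. Its level was 6147 and 4410.3 normalized read counts per kb in the sample libraries, 6385 and 6079.7 in mock libraries, and 6037 and 5639 in the untransfected libraries. ITGA3 and ITGB5 followed in that order in all 3 groups, ITGA3 with group means of 3423 per kb in sample, 3439 in mock and 2148 in untransfected cells, and ITGB5 with 2145, 2333 and 1538 in the same groups. Below them the order differed between transfected and untransfected cells. In both sample and mock cells it ran ITGA6, ITGA5, ITGAV, ITGA4, ITGA2, ITGB3 and ITGB8, and in untransfected cells it ran ITGAV, ITGA5, ITGA6, ITGB8, ITGA4, ITGB3 and ITGA2. ITGAV was thus above ITGA5 and ITGA6 in untransfected cells and below both after either transfection, and ITGB8 was last after either transfection with 29.2 per kb in sample and 32.3 in mock cells, against 239 in untransfected cells. Neighbours in these orders did not overlap between libraries in mock and untransfected cells. In sample cells ITGA6 overlapped ITGA5, and ITGA5 overlapped ITGAV, so their order there lies within the spread of the pair.

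**Figure D1:**
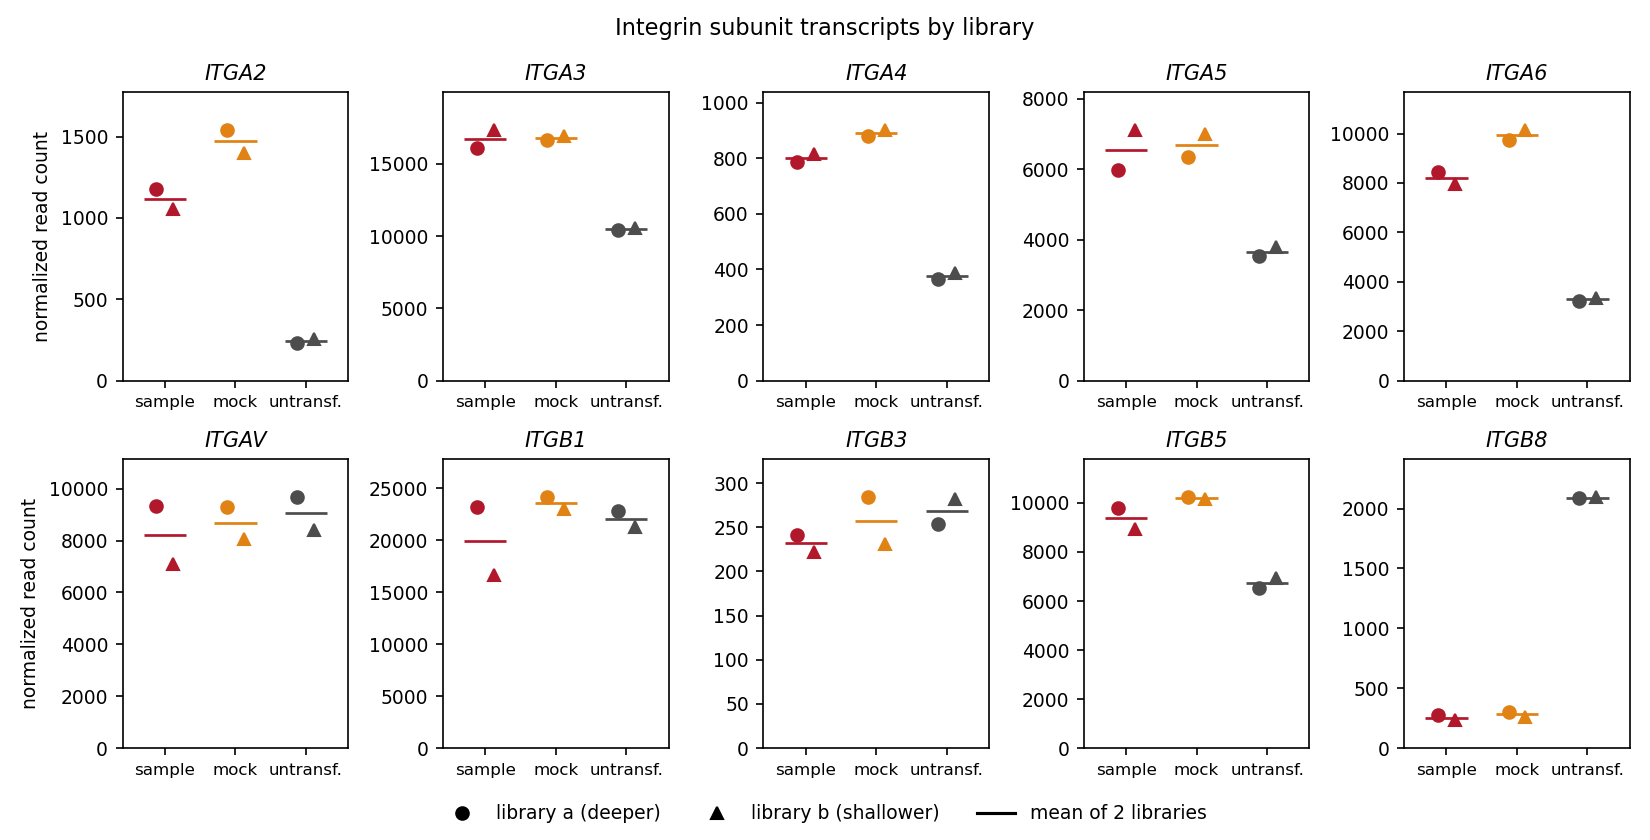
Normalized read counts (y axis, from 0, one scale per gene) of the 10 integrin subunits in sample, mock and untransfected (untransf.) libraries. Circles are library a, triangles library b and lines the mean of 2 libraries; ITGA2 and ITGA6 stand lowest in untransfected cells and ITGB8 stands highest there, at 2089.5 and 2095.

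In the authors' deposited table of sample against untransfected cells, 7 of the 10 subunits passed an adjusted p of 0.05, and 37.3% of all genes tested did so. In it 6 rose, ITGA2, ITGA3, ITGA4, ITGA5, ITGA6 and ITGB5, and 20.2% of all genes were higher. ITGB8 fell, and 17.1% of all genes were lower. Mock and untransfected cells differ by the control plasmids and the reagent, and a difference between cultures cannot be told apart from these. In the authors' deposited table of this comparison 7 of 10 subunits passed the same threshold, where 50.9% of all genes passed. Here 6 rose and 1 fell, each the same gene as with the sample plasmids, and 27.5% of all genes were higher and 23.3% lower. These comparisons share the untransfected libraries, so the match is not independent. The median log2 fold change of the 10 subunits in the authors' deposited tables was 0.57 for sample and 0.66 for mock against untransfected cells, with a median of -0.00 over all genes tested in each. Both transfected groups stood apart from untransfected cells, with no overlap of libraries, for 8 of the 10 members each, against 74.5% of all genes for sample and 82.5% for mock cells. The alpha subunits had medians of 0.94 and 1.07 and the beta subunits -0.16 and 0.04 in the same tables.

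**Figure D2:**
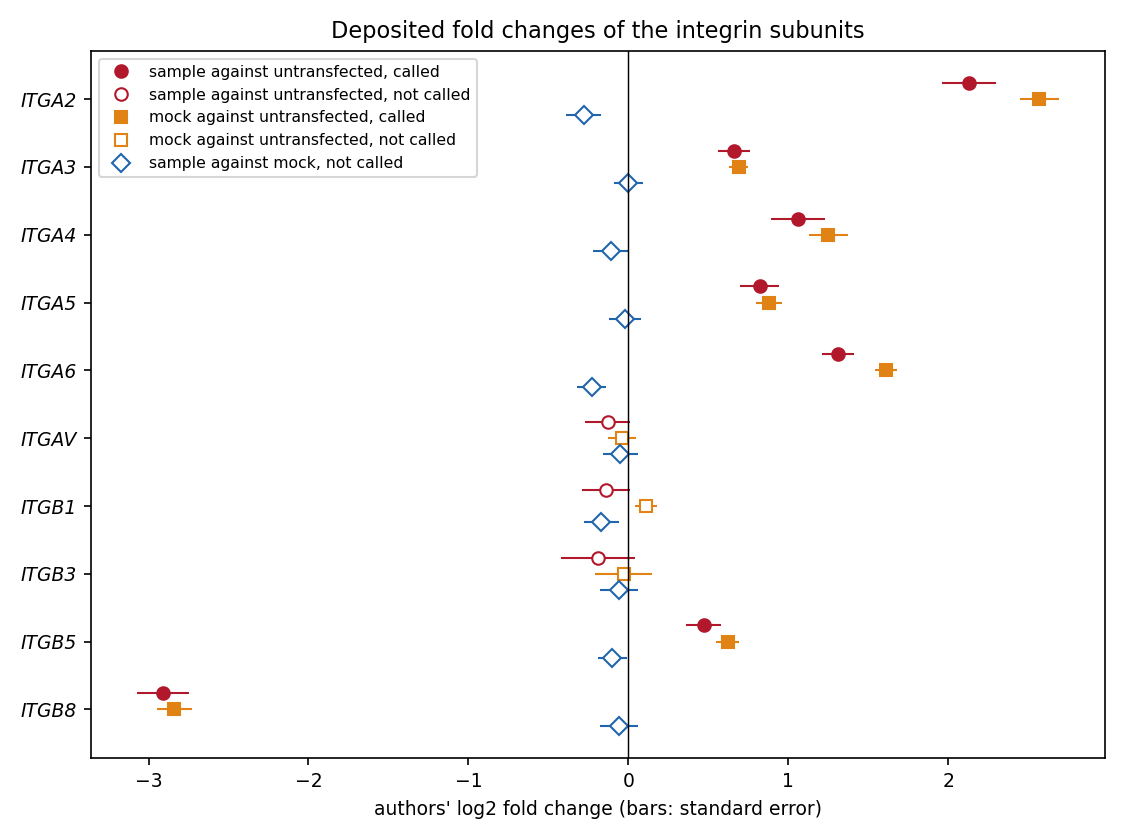
Log2 fold changes in the authors' deposited tables (x axis, bars are the standard error) of each subunit for sample against untransfected (circles), mock against untransfected (squares) and sample against mock cells (diamonds), filled where the adjusted p is under 0.05. ITGA2 lies farthest right and ITGB8 farthest left in both comparisons with untransfected cells, and the diamonds lie between -0.28 and 0.

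The collagen receptor subunit ITGA2 (chromosome 5, 52989326 to 53094779, plus strand, hg38, 30 exons) had the highest fold change of the 10 members in both comparisons with untransfected cells. It had 1177 and 1058 normalized read counts in the sample libraries, 1543 and 1400.3 in mock libraries and 231 and 259 in the untransfected libraries. Both transfected pairs lay far above the untransfected pair, and the sample pair lay below the mock pair without overlap. Log2 fold changes in the authors' deposited tables were 2.13 (SE 0.17, adjusted p = 3.36e-34) for sample and 2.57 (SE 0.12, adjusted p = 8.2e-101) for mock against untransfected cells. On recovered counts limma-voom gave 2.21 (95% interval 1.94 to 2.48) and 2.58 (2.32 to 2.83). The entry counted for ITGA2 is one that RefSeq classes as noncoding. By level per kb ITGA2 ranked 8 among the 10 members in sample and in mock cells and 10 in untransfected cells.

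Among the laminin receptor subunits, both rose, ITGA6 with the larger log2 fold change. ITGA6 (chromosome 2, 172427555 to 172506455, plus strand, hg38), which also pairs with ITGB4 in hemidesmosomes, had 8433 and 7959 normalized read counts in the sample, 9758 and 10158 in the mock and 3229.8 and 3342 in the untransfected libraries. The 3 pairs did not overlap, with mock highest. Its log2 fold changes in the authors' deposited tables were 1.31 (SE 0.10, adjusted p = 8.35e-36) for sample and 1.61 (SE 0.07, adjusted p = 5.04e-118) for mock against untransfected cells. ITGA3 (chromosome 17, 50055968 to 50090485, plus strand, hg38) had 16102 and 17359.6 normalized read counts in the sample, 16672 and 16949.7 in the mock and 10405 and 10589 in the untransfected libraries. Here the transfected pairs overlapped each other and lay above the untransfected pair. The authors' deposited tables gave ITGA3 log2 fold changes of 0.66 (SE 0.10, adjusted p = 5.28e-11) for sample and 0.69 (SE 0.06, adjusted p = 2.4e-27) for mock against untransfected cells.

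The fibronectin receptor subunits ITGA5 and ITGA4 also rose after both transfections. ITGA5 (chromosome 12, 54395261 to 54419266, minus strand, hg38), which binds the RGD motif of fibronectin, had 5981 and 7119 normalized read counts in the sample, 6346 and 7004 in the mock and 3524 and 3779 in the untransfected libraries. Sample and mock pairs overlapped, and both lay above the untransfected pair. Its log2 fold changes in the authors' deposited tables were 0.82 (SE 0.12, adjusted p = 1.56e-10) for sample and 0.88 (SE 0.08, adjusted p = 4.94e-28) for mock against untransfected cells. ITGA4 (chromosome 2, 181456892 to 181538928, plus strand, hg38), which binds fibronectin and VCAM1 and is best known from leukocytes, was less abundant, with 785 and 815 normalized read counts in the sample, 879 and 903 in the mock and 365 and 386 in the untransfected libraries. Its 3 pairs did not overlap, and the sample pair stood a little below the mock pair. The authors' deposited tables gave ITGA4 log2 fold changes of 1.06 (SE 0.17, adjusted p = 3.11e-09) for sample and 1.25 (SE 0.12, adjusted p = 4.63e-24) for mock against untransfected cells. A second, short ITGA4 entry, which ends at 181476218, had 17.6 and 20.2 reads per 100 reads of the long one in the sample, 17.8 and 17 in the mock and 18.1 and 19.6 in the untransfected libraries. The sample range spanned that of the untransfected libraries and overlapped that of the mock libraries, which lay just below the untransfected ones.

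ITGAV and ITGB1, the subunits with the most partners, did not pass the threshold in any of the 3 deposited tables. ITGAV (chromosome 2, 186590063 to 186680902, plus strand, hg38) had 9349 and 7107 normalized read counts in the sample, 9311 and 8075 in the mock and 9673 and 8418 in the untransfected libraries. All 3 pairs overlapped. Its log2 fold changes in the authors' deposited tables were -0.13 (SE 0.14, adjusted p = 0.523) for sample and -0.04 (SE 0.09, adjusted p = 0.742) for mock against untransfected cells, and the limma-voom 95% intervals were -0.43 to 0.16 and -0.35 to 0.21. ITGB1 (chromosome 10, 32900318 to 32957894, minus strand, hg38) had 23259 and 16688 normalized read counts in the sample, 24162 and 23006 in the mock and 22843 and 21336 in the untransfected libraries. Sample library b was the low one of the 6, and the mock pair lay just above the untransfected pair without overlap. The authors' deposited tables gave ITGB1 log2 fold changes of -0.14 (SE 0.15, adjusted p = 0.501) for sample and 0.11 (SE 0.07, adjusted p = 0.151) for mock against untransfected cells, and the limma-voom 95% intervals were -0.46 to 0.13 and -0.21 to 0.37.

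The values of ITGAV and ITGB1 in sample cells turn on 1 library. The log2 ratio of sample library b to a was -0.48 for ITGB1 (40% GC) and -0.40 for ITGAV (38.1% GC). Of the other members of low GC content it was -0.28 for ITGB8 (37.8%), -0.15 for ITGA2 (40.2%), -0.08 for ITGA6 (41.4%) and 0.05 for ITGA4 (44.1%). At higher GC content it was -0.12 for ITGB3 (52.3%), -0.13 for ITGB5 (54.3%), 0.25 for ITGA5 (58.7%) and 0.11 for ITGA3 (60.9%), so members of like GC content differed. Over all genes the correlation of this log2 ratio with GC content was 0.26 in the sample pair, 0.10 in the mock pair and 0.08 in the untransfected pair (12170 genes, all points from the same 2 libraries in each pair), and its part in the member values was not tested. Without sample library b, limma-voom gave log2 fold changes against untransfected cells of 0.08 for ITGB1 (adjusted p = 0.472) and 0.06 for ITGAV (adjusted p = 0.683). Without sample library a they were -0.42 for ITGB1 (adjusted p = 0.00295) and -0.36 for ITGAV (adjusted p = 0.0214). In each of these fits the remaining sample library is assumed to vary like the other groups.

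Of the beta partners of ITGAV besides ITGB1, ITGB5 rose and ITGB8 fell against untransfected cells, and ITGB3 was not called. ITGB5 (chromosome 3, 124761948 to 124887305, minus strand, hg38), which with ITGAV forms a vitronectin receptor, had 9809.6 and 8943 normalized read counts in the sample, 10235 and 10168 in the mock and 6525 and 6927 in the untransfected libraries. Both transfected pairs lay above the untransfected pair. It rose, with log2 fold changes in the authors' deposited tables of 0.47 (SE 0.11, adjusted p = 4.09e-05) for sample and 0.62 (SE 0.07, adjusted p = 6.34e-19) for mock against untransfected cells. ITGB3 (chromosome 17, 47253842 to 47312711, plus strand, hg38), the other vitronectin receptor subunit and one best known from platelets and osteoclasts, was low throughout, with 241 and 222 normalized read counts in the sample, 284 and 231 in the mock and 254 and 282 in the untransfected libraries. The sample pair lay below the untransfected pair and the mock pair straddled it. The authors' deposited tables gave ITGB3 log2 fold changes of -0.19 (SE 0.23, adjusted p = 0.581) for sample and -0.03 (SE 0.18, adjusted p = 0.891) for mock against untransfected cells.

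ITGB8 (chromosome 7, 20331102 to 20415759, plus strand, hg38), which pairs with ITGAV and is known for activating latent TGF-beta, was the member that fell. It had 280.1 and 231 normalized read counts in the sample, 301 and 264 in the mock and 2089.5 and 2095 in the untransfected libraries. The untransfected pair stood far above all 4 transfected libraries, and the sample and mock pairs overlapped. Log2 fold changes in the authors' deposited tables were -2.91 (SE 0.16, adjusted p = 2.99e-71) for sample and -2.84 (SE 0.11, adjusted p = 1.67e-148) for mock against untransfected cells. On recovered counts limma-voom gave -2.97 (95% interval -3.26 to -2.69) and -2.90 (-3.13 to -2.66), and the value for sample cells was -3.18 without sample library a and -2.90 without sample library b. The depth behind these values was 358 and 56 reads in the sample, 424 and 285 in the mock and 3216 and 2940 in the untransfected libraries. An overlapping antisense gene, ITGB8-AS1, had a mean of 13.7 normalized counts over the 6 libraries, and whether counting used strand is not given in the sources used here. Of genes that overlap other members, SNORA86, inside ITGB1, had a mean of 269 and CERKL, which shares its locus with ITGA4, a mean of 43.7 normalized counts.

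Among the 12578 genes with a mean of at least 50, those with the pattern most like that of ITGB8 over the 6 libraries were LINC00639, COL9A2, a cartilage collagen chain gene, and PBXIP1, with Pearson r of 0.9999, 0.9994 and 0.9993 on log2 normalized counts. COL9A2 had 428 and 371 normalized read counts in the sample, 461 and 390.4 in the mock and 1631 and 1661 in the untransfected libraries. LINC00639 had 6.26 and 4.12 in the sample, 7.8 and 5.56 in the mock and 292 and 289 in the untransfected libraries. With 2 levels of expression over 6 libraries, a high r says little beyond a shared fall in transfected cells. For ITGB1, the most abundant member, the 3 most alike genes were WHR1 (r = 0.9963), CDC45, a replication factor gene (0.9916), and REV1, a translesion polymerase gene (0.9905). CDC45 had 3049.5 and 2347 normalized read counts in the sample, 3158 and 3056 in the mock and 3078 and 2787 in the untransfected libraries, with sample library b the lowest as for ITGB1.

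The balance of subunits within each chain class was described by each member's share of the class sum, in normalized counts per kb. The alpha sum was 7921 and 8012 in the sample, 8432 and 8521 in the mock and 5048 and 4991 in the untransfected libraries. The beta sum was 8483 and 6538 in the sample, 8832 and 8493 in the mock and 7832 and 7533 in the untransfected libraries. The alpha sum was higher in all 4 transfected libraries, and the beta sums overlapped between sample and untransfected libraries. The alpha to beta ratio was 0.934 and 1.23 in the sample, 0.955 and 1 in the mock and 0.645 and 0.663 in the untransfected libraries. The highest ratio was in sample library b, in which ITGB1 was low.

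ITGA3 held the largest alpha share in every library, between 40.4% and 44.3%. ITGAV held 17.1% and 12.8% of the alpha sum in the sample, 16% and 13.7% in the mock and 27.8% and 24.4% in the untransfected libraries. ITGA6 held 20.1% and 18.7% in the sample, 21.8% and 22.5% in the mock and 12.1% and 12.6% in the untransfected libraries. ITGAV and ITGA6 thus changed places in order between transfected and untransfected cells, and for each the transfected libraries did not overlap the untransfected ones. ITGA2 held 1.89% and 1.68% of the alpha sum in the sample, 2.33% and 2.09% in the mock and 0.582% and 0.661% in the untransfected libraries. Within the beta class ITGB1 held 72.5% and 67.5% in the sample, 72.3% and 71.6% in the mock and 77.1% and 74.9% in the untransfected libraries. ITGB8 held 0.377% and 0.403% of the beta sum in the sample, 0.389% and 0.356% in the mock and 3.05% and 3.18% in the untransfected libraries. These are shares of RNA and not of receptor protein, and other subunits are left out of the sums.

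**Figure D3:**
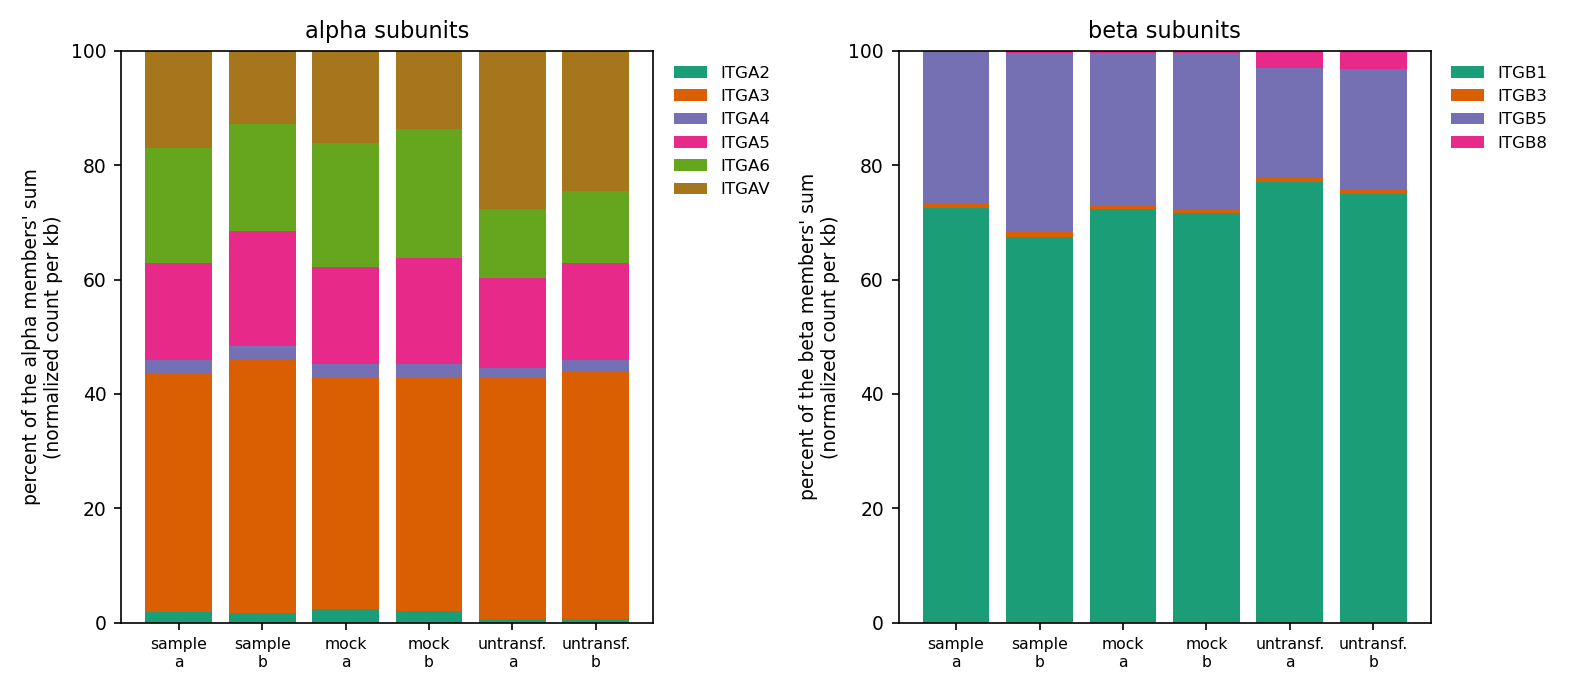
Share of each alpha subunit (left) and each beta subunit (right) in its class sum, in percent of normalized counts per kb, for each sample, mock and untransfected (untransf.) library. ITGAV takes 24.4% to 27.8% of the alpha bar in untransfected libraries and 12.8% to 17.1% in the others, and the thin ITGB8 band is at 3.05% and 3.18% in the untransfected libraries.

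Sample and mock cells differ in their plasmids, and none of the 10 subunits passed an adjusted p of 0.05 between them in the authors' deposited table, where 0.0654% of all genes did. The median of their log2 fold changes was -0.08, against -0.00 over all genes tested, and every adjusted p was 0.9999 in the authors' deposited table. That table shrinks fold changes strongly toward 0. ITGA2 had -0.28 (SE 0.11, unadjusted p = 0.0119) and ITGA6 -0.23 (SE 0.09, unadjusted p = 0.0125) in the authors' deposited table, the 2 members with an unadjusted p under 0.05, where 1.94% of all genes had one. On recovered counts limma-voom gave -0.37 for ITGA2 (95% interval -0.59 to -0.14, unadjusted p = 0.00463, adjusted p = 0.861) and -0.27 for ITGA6 (95% interval -0.43 to -0.12, unadjusted p = 0.0032, adjusted p = 0.757), again the 2 members with an unadjusted p under 0.05, where 4.34% of all genes had one. By limma-voom 0 of the 10 passed after adjustment, and 0.0134% of all genes did. Sample and mock libraries did not overlap for 4 members, against 34.3% of all genes. In all 4, ITGA2, ITGA4, ITGA6 and ITGB5, both sample libraries were the lower ones, and 19.1% of all genes had that order. The limma-voom 95% intervals of ITGA4, -0.37 to 0.05, and of ITGB5, -0.28 to 0.05, included 0. For the remaining members the limma-voom 95% intervals were -0.16 to 0.14 for ITGA3, -0.27 to 0.17 for ITGA5, -0.36 to 0.23 for ITGAV, -0.48 to 0.24 for ITGB3 and -0.40 to 0.25 for ITGB8, so differences of that size are not excluded. ITGB1 had -0.25 (95% interval -0.54 to 0.04), and without sample library a -0.50 with an adjusted p of 0.00585, in a fit where 5.68% of all genes passed.

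Of 16 other integrin subunits, 5 had a mean of at least 50 normalized counts, 5 were under 10 and 1, the leukocyte subunit ITGAL, was at 0. In the authors' deposited table of sample against untransfected cells 0 of 11 tested rose and 3 fell, and in that of mock against untransfected cells 2 of 13 rose and 4 fell. Over all genes 20.2% were higher and 17.1% lower for sample cells, and 27.5% were higher and 23.3% lower for mock cells. ITGB4, the hemidesmosome partner of ITGA6, had 93.1 and 98.8 normalized read counts in the sample, 58.9 and 72.3 in the mock and 628 and 674 in the untransfected libraries. It fell in the authors' deposited tables, with log2 fold changes of -2.63 (SE 0.22, adjusted p = 9.25e-30) for sample and -3.21 (SE 0.18, adjusted p = 3.03e-70) for mock against untransfected cells, so it stood opposite to ITGA6. The laminin receptor subunit ITGA7 fell with -0.90 for sample and -0.94 for mock against untransfected cells in the authors' deposited tables. The collagen receptor subunit ITGA11 fell there with -1.53 for sample and -1.62 for mock cells. ITGB2, the leukocyte beta chain, rose with 0.90 in the authors' deposited table of mock against untransfected cells, and was not called for sample cells (0.31). Per kb, ITGB4 stood at 16.8 and 17.8 in the sample, 10.6 and 13 in the mock and 113 and 121 in the untransfected libraries, so in untransfected cells it was between ITGA4 and ITGB8.

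Genes for proteins that bind integrin tails or set integrin activity are the next list. Of 19 tested, 6 rose and 3 fell in the authors' deposited tables in both comparisons with untransfected cells, with medians of 0.14 for sample and 0.10 for mock cells. Over all genes 20.2% rose and 17.1% fell for sample cells and 27.5% rose and 23.3% fell for mock cells, so these shares are near the background. Of the kindlin genes, FERMT1, the epithelial kindlin, rose with 1.18 for sample and 1.20 for mock cells in the authors' deposited tables. FERMT2 fell there with -0.50 for sample and -0.57 for mock cells, and FERMT3 was not called in either (0.39 and 0.66). Mean normalized counts over the 6 libraries were 470.0 for FERMT1, 4933 for FERMT2 and 47.4 for FERMT3. SLC3A2, the CD98 heavy chain that binds beta tails and carries amino acid transporters, rose with 1.04 for sample and 1.22 for mock cells in the authors' deposited tables. The adaptor DOK1 fell with -0.53 for sample and -0.41 for mock cells in the authors' deposited tables.

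Focal adhesion adaptors and kinases rose in 11 of 29 for sample and 15 of 29 for mock cells, and 4 and 7 fell in the same comparisons of the authors' deposited tables, with medians of 0.28 and 0.18. The shares over all genes were 20.2% higher and 17.1% lower for sample and 27.5% higher and 23.3% lower for mock cells. The lowest were the tensin genes TNS3 and TNS2, whose products link beta tails to actin. TNS3 fell with -1.68 for sample and -1.95 for mock cells and TNS2 with -1.52 and -1.64 in the authors' deposited tables, whereas of the other tensin genes TNS4 was not called in either (-0.10 and -0.29) and TNS1 was at 0.10, not called, for sample cells and fell with -0.54 for mock cells. The scaffold gene PXN (paxillin) rose with 1.35 (SE 0.35) for sample and 1.22 (SE 0.09) for mock cells in the authors' deposited tables. Its sample libraries differed, with 1798 and 3249 normalized read counts, against 2027 and 1884 in the mock and 864 and 825 in the untransfected libraries. ZYX (zyxin) rose with 1.29 (SE 0.45, adjusted p = 0.0129) for sample and 1.02 for mock cells in the authors' deposited tables. ACTN1 (alpha-actinin) rose there with 1.19 for sample and 1.25 for mock cells. The sample libraries of ZYX were at 1710.2 and 4245 normalized read counts, with library b, the shallow one, far above library a.

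Ligands of integrins rose in 11 of 25 tested for sample and in 16 of 25 for mock cells, and 5 and 6 fell in the same comparisons of the authors' deposited tables. Of all genes, 20.2% were higher and 17.1% lower for sample and 27.5% higher and 23.3% lower for mock cells. Medians were 0.68 for sample and 0.87 for mock cells, the highest of the 5 lists. The matricellular protein genes CCN2 and CCN1, whose products bind ITGAV and other integrins, rose for sample cells with 1.99 and 1.73. For mock cells they rose with 1.86 and 1.44 in the authors' deposited tables. LAMA5, a laminin chain, fell with -2.08 for sample and -2.70 for mock cells in the authors' deposited tables. TGFB3, a ligand whose latent form binds ITGAV integrins, fell there with -2.01 for sample and -2.04 for mock cells. LAMA4 fell with -2.25 for sample and -2.38 for mock cells in the same tables.

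Lateral partners and trafficking genes rose in 9 of 24 for sample and 14 of 24 for mock cells, and 4 fell in each comparison of the authors' deposited tables, with medians of 0.14 and 0.28. The 4 that fell are at or below the share over all genes, 17.1% lower for sample and 23.3% for mock cells, where 20.2% and 27.5% were higher. PLAUR, the urokinase receptor, which associates with integrins at the surface, rose with 1.88 for sample and 2.26 for mock cells in the authors' deposited tables. SDC4, a syndecan that acts with ITGA5 receptors on fibronectin, rose with 1.62 for sample and 1.93 for mock cells in the authors' deposited tables. The arrestin-domain gene ARRDC3, known to take part in ITGB4 turnover, fell with -1.32 for sample and -1.65 for mock cells in the authors' deposited tables. The tetraspanin gene CD9 fell with -0.90 for sample and -0.79 for mock cells in the authors' deposited tables. The recycling adaptor gene RAB11FIP1 fell there with -0.72 for sample and -0.91 for mock cells.

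**Figure D4:**
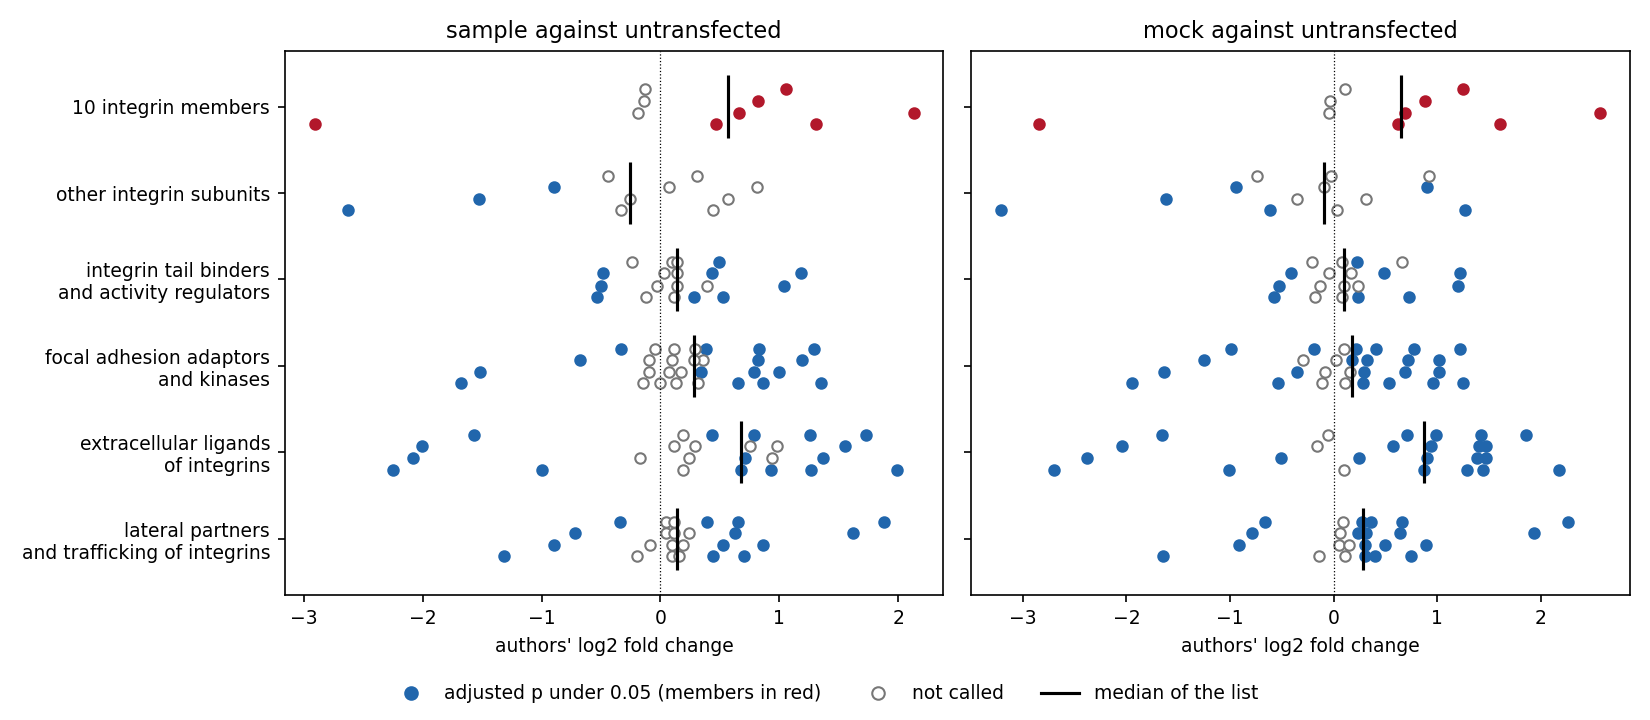
Log2 fold changes in the authors' deposited tables (x axis) for the 10 integrin subunits (red where called) and 5 lists of related genes, for sample (left) and mock (right) against untransfected cells; filled points have an adjusted p under 0.05 and bars are list medians. The 10 subunits have medians of 0.57 and 0.66 and the ligands 0.68 and 0.87.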

How the data were processed

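The 6 libraries were grouped by the transfection in the labels, 2 per group, with directional libraries, per the labels' protocols. The submitters' processing notes name Bowtie, STAR, DESeq2 and the build hg38, with no versions or roles. Neither the annotation nor the counting step is described in the sources used here. Deposited were 3 comparison tables of 40029 transcript entries, which hold, per the file headers, a mean signal of normalized counts over 4 libraries, the authors' log2 fold change with its standard error, a Wald score, and p-values with adjusted p-values. The deposited fold changes are shrunk toward 0.

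Because each deposited mean is built from whole counts divided by size factors, the counts of all 6 libraries were solved by lattice reduction (relative tolerance 1e-14). All 30527 entries with reads were solved, and 6310 of 6310 entries were recovered on simulated data. Normalized counts use median-of-ratios size factors over the 6 libraries. Isoform entries share reads, so the members' 15 entries were not added up in the main results. Symbols came from RefSeq, then GENCODE 29, for 39745 entries (99.3%), and entries without one held 0.078% of reads.

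Calls are the authors' at an adjusted p under 0.05. The alternative test was limma-voom (limma 3.58.1, R 4.3.3) on recovered counts of genes with a mean of at least 10, with Benjamini-Hochberg adjustment over 14897 features. In data simulated for sample against untransfected cells the test found 87% of the genes with a 2-fold rise and 81% of the genes with a fold of 0.5 (14887 genes in the fit). The simulation gave all 6 libraries the same dispersion and no trend with GC content, so these rates need not hold for the real libraries. There the SD of the log2 ratio of library b to a was 0.413 in the sample, 0.207 in the mock and 0.173 in the untransfected pair. The members, the 5 lists of related genes and the 4 marker lists were chosen with earlier results of these data known. All members are named whatever their result, and from each list the called genes with a mean of at least 50 that ranked among the 2 highest or 2 lowest of a comparison, besides the 3 genes most like 2 of the members. Some list genes that meet this rule are not reported here. Marker genes named in the check of cell type were picked as examples after their values were seen. Of the markers, RUNX2 fell with -1.76 and ALPL rose with 3.05 on the log2 scale in the authors' deposited table of sample against untransfected cells. There 5 of 10 osteoblast, 2 of 7 blood, 4 of 6 epithelial and 1 of 2 endothelial markers tested were called, against 37.3% of all genes. Python 3.11.15, numpy 2.4.6, pandas 2.3.3, sympy 1.14.0 and matplotlib 3.10.9 were used. The alternatives tried were other thresholds, filters, centring, library sizes, entries per gene and tests, and each library left out.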

Additional observations from a re-analysis of the deposited data

How the results depend on the processing

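The counts of members called were 7 for sample and 7 for mock against untransfected cells and 0 between sample and mock cells under each alternative that kept all libraries. The share of all genes called changed with the setting. By limma-voom on all 6 libraries it was 50.6% for sample and 59% for mock against untransfected cells. With the 2 compared groups alone it was 48.2% for sample and 65.6% for mock cells, so 7 of 10 for mock cells was near that share. With libraries left out one at a time they ranged from 7 to 9, from 7 to 7 and from 0 to 1. The upper values came without sample library a, where ITGB1 and ITGAV were also called lower against untransfected cells and ITGB1 was called lower against mock cells. In that fit 844 of all genes were called between sample and mock cells, against 2 with all 6 libraries and 10 in the authors' deposited table, and the single sample library left was assumed to vary like the other groups. No paired analysis was possible because the recovered libraries carry no replicate number. Of 450 checks of single log2 fold changes over 15 alternatives, 434 kept direction and call, 3 gained a call and 13 changed sign, all 13 of members that were not called. The alternatives of threshold and filter kept the deposited fold changes, so direction could not change there. Centring kept the calls and shifted the fold changes by a median of -0.00. Signs were compared after rounding to 2 decimals, so ITGA3, at -0.00 for sample against mock cells, could not count as changed. With total-count library sizes, which shift the median of all genes by -0.12 for sample and -0.13 for mock against untransfected cells, ITGB1 was at -0.04 for mock cells. The other sign changes came with a library left out. For sample against untransfected cells ITGAV ranged from -0.36 to 0.06 and ITGB1 from -0.42 to 0.08. For mock against untransfected cells ITGAV ranged from -0.17 to 0.03 and ITGB3 from -0.22 to 0.07. For sample against mock cells the ranges were -0.16 to 0.09 for ITGA5, -0.29 to 0.11 for ITGAV, -0.26 to 0.03 for ITGB3 and -0.29 to 0.02 for ITGB8, and ITGA3, at -0.00, ranged from -0.06 to 0.04. The cause was not tested. The 9579278 reads of sample library b limit the precision for ITGB3 and ITGB8, which had 54 and 56 reads in it.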
